A study of Gallus gallus with 6 samples.

Results

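The 34 genes described here encode the cathepsins, the subunits and accessory proteins of the vacuolar proton pump (V-ATPase) and the LAMP membrane proteins, which together make up much of the working lysosome. They are all listed genes whose symbol is CTS plus a letter, with or without further digits, begins with ATP6V or ATP6AP, or is LAMP plus a digit. The rule used symbols only and no measured value. It found 34 of the 15491 genes listed, of which 11 are cathepsins, 19 belong to the pump and 4 are LAMPs, and all 34 passed the filter on low counts.

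Abdominal fat of male chickens of the Ross broiler strain, grown for meat, was sampled in 2 groups with 3 RNA-seq libraries each, to ask how chronic heat alters gene expression in this tissue. From day 14 of age all birds were caged singly at 22 °C under continuous light and on the same diet. From day 21 to day 35 thermoneutral birds remained at 22 °C while heat stress birds were kept at 32 °C, both at 50% humidity. The labels name no other treatment and do not state that each library is 1 chicken, so the p-values below rest on the spread from library to library, which may be technical. The tissue was whole abdominal fat and holds many cell types. The adipocyte fatty acid carrier FABP4 averaged 7565 ± 445 CPM in thermoneutral and 6238 ± 791 CPM in heat-stressed fat. It ran against most of its list: of 18 adipocyte markers tested, 15 had a positive log2 fold change (higher in heat stress) and 3 a negative one. Over all genes tested, 50.6% were negative.

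The lysosome is an acidic compartment in which proteins, lipids and sugars delivered by endocytosis and autophagy are broken down. The V-ATPase is a rotary pump: its V1 sector in the cytosol burns ATP, its V0 sector in the membrane carries protons inward, and the acid it makes activates the cathepsins, a mixed group of cysteine, aspartic and serine proteases. LAMP proteins line the inner face of the lysosomal membrane. In fat, lysosomes take part in the turnover of proteins and lipid droplets in adipocytes and in the handling of lipid by macrophages. The roles given for single genes below are known mainly from human and mouse.

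Levels are given in CPM, the count of a gene in every 1e+06 counts of its library after TMM scaling, as mean ± SD over the 3 libraries of a group, and differences as log2 fold changes of heat stress over thermoneutral with their SE from edgeR. Total counts ran from 30673333 to 35836632 in the thermoneutral libraries and from 38336086 to 45163458 in the heat stress libraries, so that every heat stress library was deeper than every thermoneutral one. In thermoneutral 1, the shallowest library, 1 CPM was 29.98 counts. CPM depends on gene length, so levels of different genes are compared only in the authors' TPM, which is scaled for length.

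The lysosomal genes differed little between the groups. In edgeR's quasi-likelihood test with Benjamini-Hochberg adjustment over all 14743 genes tested, 0 of the 34 passed an FDR of 0.05, where 0.176% of all genes did. At an unadjusted p under 0.05 there were 6 of 34 (17.6%), against 18.8% of all genes, so the share was near the background. Of these, 3 were higher in heat stress (CTSZ, ATP6V1D and ATP6V0A1; 9.56% of all genes were higher) and 3 were lower (CTSK, CTSO and ATP6AP1; 9.20% of all genes were lower). DESeq2 gave an adjusted p under 0.05 to CTSK and CTSO, which were lower, and CTSZ, which was higher. It did so for 9.18% of the genes to which it gave an adjusted p. The authors' deposited table holds the same 3 members at an adjusted p under 0.05, with signed folds of -1.52 for CTSK (adjusted p 0.00623), -1.25 for CTSO (adjusted p 0.0332) and 1.28 for CTSZ (adjusted p 0.018). These adjusted p-values equal those of DESeq2 here, and both put 1364 of 14861 genes under 0.05. The deposited values are therefore no independent support.

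Log2 fold changes ran from -0.61 for CTSK to 0.40 for ATP6V0A1, with 14 positive, 20 negative and a median of -0.04. Over all genes tested, 50.6% were negative. The sign of this median depended on the libraries and the scale: it was 0.05 without thermoneutral 2 and heat stress 2, 0.01 without thermoneutral 2, 0.0022 without heat stress 3 and 0.06 on log2(TPM + 1). On log2(TPM + 1) the median of all genes was positive too, at 0.0762. In CPM, the 3 libraries of a group lay wholly on one side of the other 3 for 8 of the 34 genes, against 25.0% of all genes. Besides the 6 above these were LAMP1, higher, and LAMP2, lower in CPM but not in TPM. For 29 of the 34 genes the 95% interval of the fold change stayed within 2-fold either way, against 68.3% of all genes. For 23 it stayed within 1.5-fold, against 45.2% of all genes. These shares are not matched for level: 27 of the 34 had at least 30 CPM, beside 6067 of the 14743 genes tested. The wide intervals belong to CTSG, ATP6V1C2, ATP6V0D2, LAMP3 and LAMP5.

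**Figure D1:**
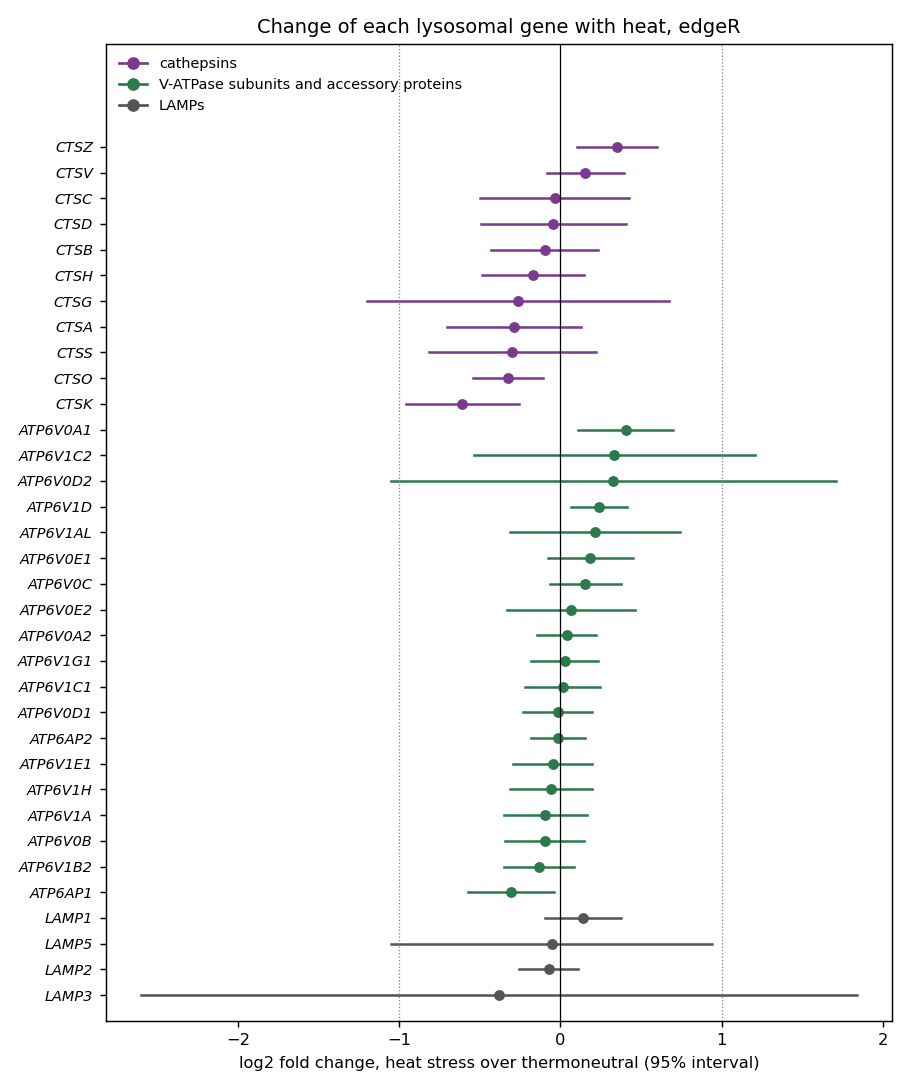
Log2 fold change of heat stress over thermoneutral (points) with its 95% interval from edgeR (lines) for the 34 genes, grouped into cathepsins, V-ATPase genes and LAMPs and sorted by value; dotted lines mark 2-fold. CTSK is lowest at -0.61, ATP6V0A1 is highest at 0.40, and the interval of LAMP3 is the widest, from -2.60 to 1.84.

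Thermoneutral 2 and heat stress 2 stood apart from the other libraries in epithelial genes, lung surfactant genes among them. Library numbers here are those of the sample titles. The library names carry other numbers, and the labels tie nothing shared to a number. SFTPC, a lung surfactant protein, had 31.3 and 43.8 CPM in these libraries and 0.90 to 2.05 CPM in the other 4. EPCAM, an epithelial adhesion protein, had 18.5 and 8.69 CPM there and 0.067 to 0.79 CPM elsewhere. Of 21 epithelial genes written down after LAMP3 had been seen, 14 were listed, and 12 of these had their highest value of each group in these libraries. Over all genes tested, 35.6% were highest of their group in thermoneutral 2 and 28.2% in heat stress 2. The share highest in both is not given here. Genes with 0 counts in a library are not listed, so epithelial genes at 0 could not be seen. The summed level of the 14 was 911 and 826 CPM in the libraries numbered 2, and 585 to 756 CPM in the other 4. Without ABCA3, a lipid transporter with high counts in all 6 libraries, the sum was 467 and 216 CPM against 11.9 to 59.4 CPM. Leaving out both libraries was an alternative chosen after seeing the data, and its values are given below where they turn a sign or stand far from the value over all libraries.

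Among the cysteine cathepsins, CTSK, CTSO and CTSZ separated the groups. CTSK (gene ID 395818), the collagen-cleaving protease best known from osteoclasts, had 283, 213 and 240 CPM in thermoneutral 1, 2 and 3 and 164, 183 and 136 CPM in heat stress 1, 2 and 3. All heat stress libraries were below all thermoneutral ones. The means were 245 ± 35.7 and 161 ± 23.5 CPM, a level 1.52-fold lower in heat stress, with a log2 fold change of -0.61 ± 0.15 and a 95% interval from -0.96 to -0.26. In edgeR's quasi-likelihood test its unadjusted p was 0.00459 and its Benjamini-Hochberg FDR 0.0995. Without both libraries numbered 2 the log2 fold change was -0.81 ± 0.16. Because bulk tissue was sequenced, fewer cells of a type and less RNA per cell cannot be told apart here or in any value below.

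Markers of cells known to make CTSK are given beside it. Of 19 preadipocyte and fibroblast markers tested, 9 were lower and 2 higher at an unadjusted p under 0.05, where 9.20% of all genes were lower and 9.56% higher. In edgeR 0 of the 19 passed the FDR. DESeq2 gave an adjusted p under 0.05 to 6 as lower and 2 as higher, where it did so for 9.18% of genes. Their summed level was 50820 to 62740 CPM in thermoneutral and 36420 to 44400 CPM in heat stress libraries. Genes with 0 counts in a library are not listed, so markers at 0 could not be seen. The collagen chain gene COL1A1 had 6270 ± 1952 and 4181 ± 557 CPM. Of 6 osteoclast markers tested, 1 was higher (NFATC1, the transcription factor of osteoclast formation, log2 fold change 1.14 ± 0.19) and 0 were lower in edgeR at that unadjusted p. DESeq2 likewise passed only NFATC1 among them. Of the 6, 2 log2 fold changes were positive and 4 negative, with a median of -0.22. The summed osteoclast markers had 145 to 192 CPM in thermoneutral and 191 to 216 CPM in heat stress libraries. The part of these cells in the CTSK value was not tested.

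CTSO (gene ID 422410), a widely expressed cysteine cathepsin, had 36.9, 38.9 and 40.1 CPM in thermoneutral libraries and 33.4, 29.9 and 29.3 CPM in heat stress libraries. The groups did not overlap, and the heat stress library nearest to the thermoneutral ones was number 1. The log2 fold change was -0.33 ± 0.09, a level 1.25-fold lower in heat stress, with an unadjusted p of 0.0098 and an FDR of 0.133. CTSO was also the cathepsin with the smallest spread, a coefficient of variation of 5.90% within groups.

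CTSZ (gene ID 419311), also called cathepsin X, is a carboxypeptidase that trims single residues from the end of a chain. It had 429, 384 and 372 CPM in thermoneutral 1, 2 and 3 and 538, 464 and 509 CPM in heat stress 1, 2 and 3. Every heat stress library was above every thermoneutral one, although thermoneutral 1 and heat stress 2 came near to each other. The means were 395 ± 30.2 and 503 ± 37.5 CPM, 1.28-fold higher in heat stress, with a log2 fold change of 0.35 ± 0.10, an unadjusted p of 0.012 and an FDR of 0.147. CTSZ and CTSK kept an unadjusted p under 0.05 in all 16 alternative settings, in which the log2 fold change ran from 0.30 to 0.45 for CTSZ and from -0.81 to -0.49 for CTSK.

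The other endopeptidases overlapped between the groups in CPM. CTSB, an abundant cysteine protease that also removes dipeptides, had 514 ± 71.0 CPM in thermoneutral and 480 ± 58.8 CPM in heat-stressed fat, a log2 fold change of -0.10 ± 0.14. CTSV, for which the GRCg7b gene table gives CTSL among the synonyms, had 258 ± 8.14 and 287 ± 29.3 CPM, a log2 fold change of 0.15 ± 0.10. CTSB did not separate by group: its highest values were 595 CPM in thermoneutral 2 and 547 CPM in heat stress 1. For CTSV the heat stress libraries had 257, 288 and 316 CPM, and only the first of these lay within the thermoneutral range of 249 to 264 CPM. In TPM the groups of CTSV did not overlap, from 341 to 372 in thermoneutral and from 383 to 465 in heat stress libraries. CTSD, the aspartic cathepsin, ranged from 128 to 207 CPM in thermoneutral and from 146 to 194 CPM in heat stress libraries, with means of 170 ± 39.4 and 165 ± 25.7 CPM and a log2 fold change of -0.04 ± 0.19.

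CTSS and CTSC are cathepsins of immune cells. CTSS, which trims the invariant chain of MHC class II in antigen-presenting cells, had 218, 297 and 303 CPM in thermoneutral and 293, 175 and 196 CPM in heat stress libraries. The means were 273 ± 47.5 and 222 ± 62.8 CPM, a log2 fold change of -0.30 ± 0.22. Heat stress 1 lay within the thermoneutral range and the other 2 heat stress libraries lay below it. CTSC, a dipeptidyl peptidase that activates granule proteases, had 109, 129 and 132 CPM in thermoneutral and 159, 106 and 95.7 CPM in heat stress libraries. Here heat stress 1 was above every other library and the remaining 2 were below all thermoneutral ones. The mean levels were 123 ± 12.8 and 120 ± 34.2 CPM, and the log2 fold change of CTSC was -0.04 ± 0.20. Without heat stress 1, 6 of the 34 lysosomal genes were lower and 4 higher at an unadjusted p under 0.05 in edgeR. The lower ones included CTSS and CTSC, with log2 fold changes of -0.55 and -0.29, and also the pump gene ATP6V1A (-0.21). The share of all genes at that p in this setting is not given here. Without both libraries numbered 2 the values were -0.10 for CTSS (unadjusted p 0.699) and 0.07 for CTSC (unadjusted p 0.796). CTSC was also positive without heat stress 2 (0.051), heat stress 3 (0.11) or thermoneutral 3 (0.02), so its sign turned with the library left out.

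Heat stress 1 was also the highest of its group in macrophage and dendritic cell markers. Their summed level was 2111 CPM in heat stress 1, 1571 CPM in heat stress 2 and 1640 CPM in heat stress 3, against 1921 to 2467 CPM in the thermoneutral libraries. Of 34 tested, 10 were lower and 1 was higher at an unadjusted p under 0.05, where 9.20% of all genes were lower and 9.56% higher. In edgeR 1 of the 34 passed the FDR, as lower. DESeq2 gave an adjusted p under 0.05 to 8 as lower and 1 as higher, where it did so for 9.18% of genes. CSF1R, the receptor that defines macrophages, had 480 ± 69.0 CPM in thermoneutral and 357 ± 29.5 CPM in heat-stressed fat. The part of these cells in the cathepsin values was not tested.

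CTSH, an aminopeptidase of the cysteine family, had 92.9 ± 12.7 and 82.6 ± 11 CPM, a log2 fold change of -0.17 ± 0.13. The serine carboxypeptidase CTSA, which shields lysosomal galactosidase and neuraminidase from breakdown, had 285 ± 70.4 CPM in thermoneutral and 234 ± 9.86 CPM in heat-stressed fat, a log2 fold change of -0.29 ± 0.18. CTSA was spread widely among the thermoneutral libraries, from 214 to 354 CPM, and closely among the heat-stressed ones, from 223 to 243 CPM. CTSG, a serine protease stored in granules of myeloid cells, varied most among the cathepsins, from 25.1 to 79.5 CPM within the thermoneutral group. Its means were 52.7 ± 27.3 and 43.9 ± 11.7 CPM, with a log2 fold change of -0.26 ± 0.40 and a 95% interval from -1.20 to 0.67. Its sign turned without thermoneutral 3 (0.16), and the value was -0.61 without thermoneutral 2, -0.47 without heat stress 1, -0.09 without heat stress 3 and -0.60 without both libraries numbered 2. For CTSA, leaving out thermoneutral 2 gave -0.11, thermoneutral 1 gave -0.46, and both libraries numbered 2 gave -0.14.

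Over the 11 cathepsins, 2 log2 fold changes were positive and 9 negative, with a median of -0.17 beside -0.0045 over all genes, of which 50.6% were negative. This split depended on the libraries and the scale. CTSB, CTSC and CTSD turned positive without both libraries numbered 2, with a cathepsin median of -0.10 beside -0.0093 over all genes. They were also positive with limma on log2(TPM + 1), with a cathepsin median of -0.05. On that scale the median of all genes was 0.0762, above the values of CTSB (0.0019), CTSC (0.03) and CTSD (0.07). At an unadjusted p under 0.05, 1 was higher and 2 were lower (27.3% called), beside 18.8% of all genes, of which 9.56% were higher and 9.20% lower. The summed cathepsin counts were 2287 to 2591 CPM in thermoneutral and 2202 to 2573 CPM in heat stress libraries and overlapped.

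**Figure D2:**
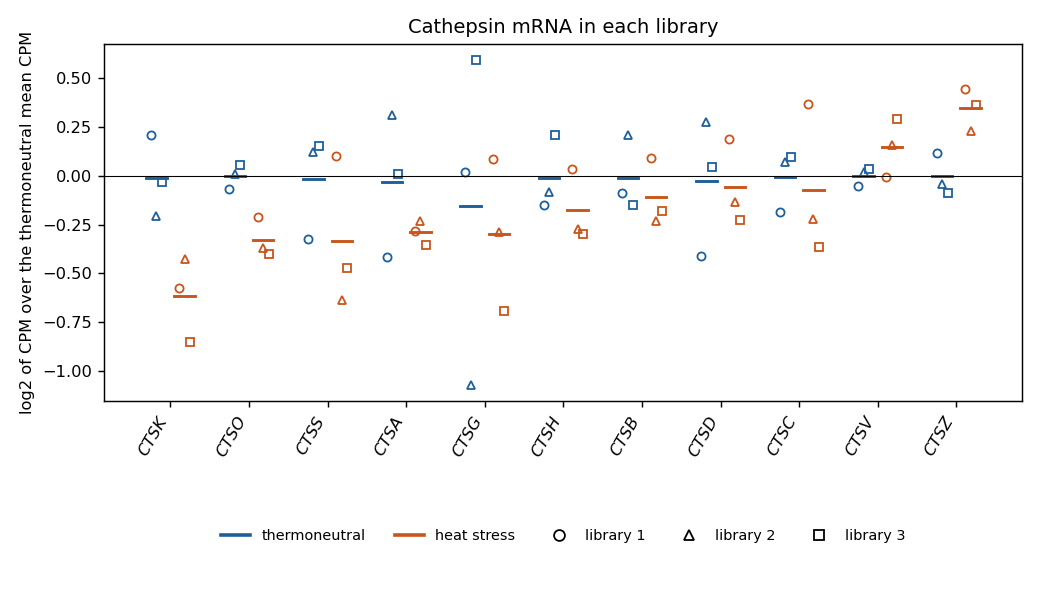
Log2 of each library's CPM over the thermoneutral mean CPM for the 11 cathepsins, sorted by the log2 fold change from edgeR. Circles, triangles and squares are libraries 1, 2 and 3, blue is thermoneutral, orange is heat stress and bars are group means of the log2 values. Groups separate for CTSK, CTSO and CTSZ, and heat stress 1 lies above the other heat stress libraries for 8 of the 11, CTSS and CTSC among them.

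Per transcript length, in the authors' TPM, CTSB was the most abundant cathepsin mRNA of this fat, at 808 ± 117 TPM in thermoneutral and 807 ± 94.1 TPM in heat-stressed tissue. CTSZ came next, at 437 ± 26.8 and 596 ± 36.4 TPM. CTSK (374 ± 49.2 TPM), CTSV (360 ± 16.6 TPM) and CTSS (356 ± 67.1 TPM) lay within their spread of one another in thermoneutral fat. In heat-stressed fat the same 3 genes stood at 264 ± 43.2, 429 ± 42.1 and 309 ± 85.2 TPM. CTSO was the least abundant, at 23.1 ± 1.30 and 19.8 ± 1.46 TPM.

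The summed cathepsin level per length overlapped between the groups, while the shares of CTSZ and CTSO did not. The summed cathepsin level was 3240 ± 222 TPM in thermoneutral and 3267 ± 289 TPM in heat-stressed fat. CTSZ made up 15.6%, 12.5% and 12.6% of it in thermoneutral libraries and 17.6%, 17.8% and 19.5% in heat stress libraries, without overlap. CTSK made up 14.2%, 9.53% and 11.2% against 7.43%, 9.65% and 7.17%, and its share overlapped through heat stress 2. CTSO gave 0.714 ± 0.0273% and 0.606 ± 0.0128%, without overlap. CTSB held about the same share in both groups, 24.9 ± 2.59% and 24.7 ± 0.805%. These shares were described after the counts had been seen and carry no test.

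**Figure D3:**
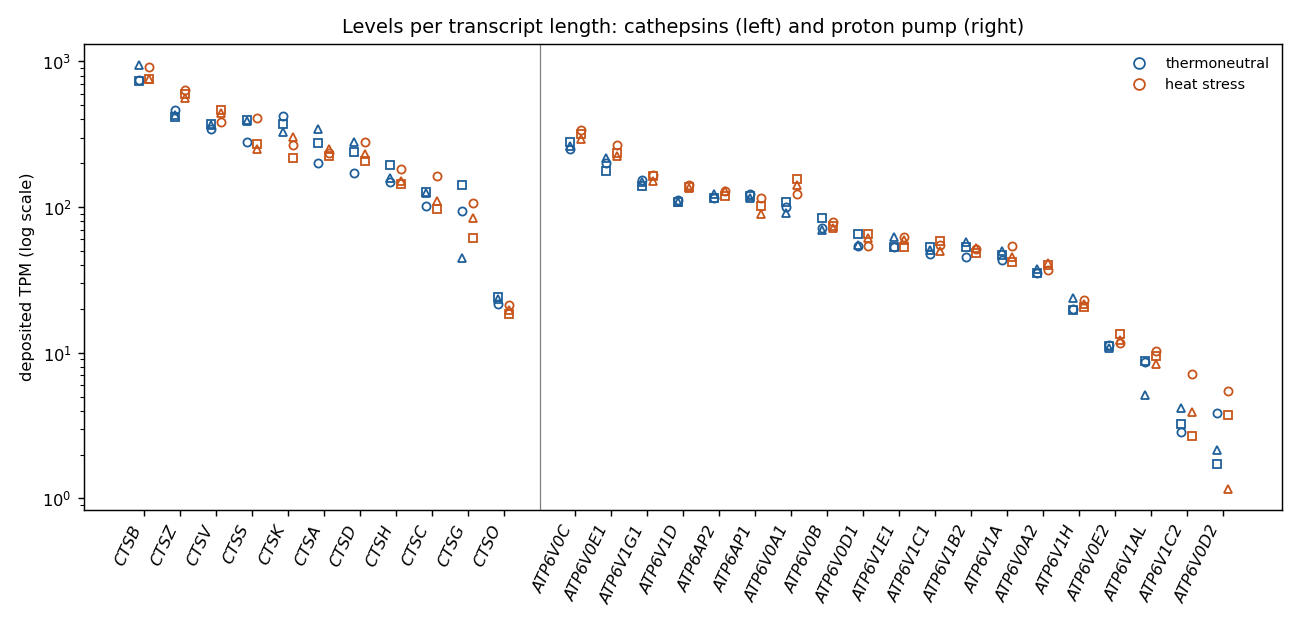
Level per transcript length, in the authors' TPM on a log axis, of the 11 cathepsins (left of the line) and the 19 V-ATPase genes (right). Circles, triangles and squares are libraries 1, 2 and 3, blue is thermoneutral and orange heat stress. CTSB tops the cathepsins at about 807 TPM in both groups, ATP6V0C tops the pump genes, and ATP6V1C2 and ATP6V0D2 lie lowest.

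The V1 sector, which binds and hydrolyses ATP, had 9 genes in the table. ATP6V1D (gene ID 423280), the central rotor shaft, had 85.3, 79.8 and 79.8 CPM in thermoneutral and 100, 92.0 and 97.2 CPM in heat stress libraries. The groups did not overlap and the spread within each was small. Its means were 81.6 ± 3.16 and 96.4 ± 4.08 CPM, 1.18-fold higher in heat stress, with a log2 fold change of 0.24 ± 0.07, an unadjusted p of 0.0132 and an FDR of 0.155. Without thermoneutral 2 the unadjusted p was 0.051.

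The catalytic and ATP-binding subunits overlapped between the groups. ATP6V1A, the catalytic subunit, had 99.3 ± 5.92 CPM in thermoneutral and 93.1 ± 12.2 CPM in heat-stressed fat, a log2 fold change of -0.09 ± 0.11. ATP6V1B2, its non-catalytic partner in the ATP-binding ring, had 81.0 ± 8.23 and 73.8 ± 2.12 CPM, a log2 fold change of -0.13 ± 0.09. In both genes heat stress 3 was the lowest library of its group, at 84.6 CPM for ATP6V1A and 71.4 CPM for ATP6V1B2. ATP6V1AL, a gene named as like ATP6V1A, had 15 ± 4.21 and 17.4 ± 2.0 CPM, a log2 fold change of 0.21 ± 0.22, and its low value of 10.1 CPM was in thermoneutral 2. Per transcript length ATP6V1AL made up 13.9 ± 4.05% and 16.7 ± 1.47% of the summed TPM of ATP6V1A and ATP6V1AL. Reads of near-identical copies could be split between these genes by the authors' counting, so the ATP6V1AL value is uncertain.

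The stalk and regulatory subunits of V1 had log2 fold changes near 0. ATP6V1E1 and ATP6V1G1 build the peripheral stalks. ATP6V1E1 had 38.3 ± 3.42 and 37.0 ± 2.65 CPM (log2 fold change -0.05 ± 0.10). ATP6V1G1 had 75.9 ± 4.94 and 77.2 ± 5.42 CPM (log2 fold change 0.03 ± 0.09). ATP6V1H, which regulates ATP use by the sector, had 29.7 ± 2.85 and 28.6 ± 1.59 CPM (log2 fold change -0.06 ± 0.11). The 95% intervals of these 3 genes reached at most -0.31 and 0.23 on the log2 scale, so that larger differences lay outside them.

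The C subunit, which ties V1 to V0, comes in a common and a rare form. ATP6V1C1 had 46.4 ± 1.87 and 46.9 ± 4.76 CPM, a log2 fold change of 0.01 ± 0.10. ATP6V1C2 had 4.4, 6.11 and 4.78 CPM in thermoneutral and 10.1, 5.33 and 3.85 CPM in heat stress libraries. Heat stress 1 was the highest library, and the other 2 heat stress libraries lay near or within the thermoneutral range. The means of ATP6V1C2 were 5.10 ± 0.90 and 6.43 ± 3.27 CPM, and its log2 fold change was 0.33 ± 0.37. That value was -0.15 without heat stress 1 and 0.59 without both libraries numbered 2. Per transcript length the rare form gave 4.36% to 11.5% of the summed TPM of the pair over the 6 libraries.

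The V0 sector, which carries protons through the membrane, had 8 genes. ATP6V0A1 (gene ID 395474), the a1 form of the large subunit along which protons pass, had 176, 154 and 185 CPM in thermoneutral and 199, 223 and 259 CPM in heat stress libraries. All heat stress libraries were above all thermoneutral ones, and thermoneutral 3 and heat stress 1 were nearest to each other. The means were 172 ± 15.9 and 227 ± 30.1 CPM, 1.32-fold higher in heat stress, with a log2 fold change of 0.40 ± 0.12, an unadjusted p of 0.0138 and an FDR of 0.158. Without thermoneutral 2 the unadjusted p was 0.0562, with a log2 fold change of 0.33.

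The a subunit has further forms. ATP6V0A2, found on endosomes and Golgi, had 53.8 ± 1.32 and 55.2 ± 3.10 CPM, a log2 fold change of 0.04 ± 0.08. TCIRG1, the a3 form of osteoclasts and immune cells, falls outside the symbol rule and had 46.2 ± 6.02 and 52.4 ± 12.5 CPM, a log2 fold change of 0.18 ± 0.18. As shares of their summed TPM, ATP6V0A1 took 60.2%, 58.0% and 59.9% in thermoneutral and 58.9%, 66.0% and 67.1% in heat stress libraries. The shares overlapped through heat stress 1, the library in which TCIRG1 was highest, at 65.7 CPM. ATP6V0A2 took 21.7 ± 2.15% and 18.2 ± 1.19%, without overlap.

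Among the proteolipid ring and the small membrane subunits, the groups overlapped in CPM for all 4 genes. ATP6V0C, its main proteolipid, had 176 ± 8.56 and 196 ± 16.9 CPM, a log2 fold change of 0.16 ± 0.09. ATP6V0B, the second proteolipid of the ring, was lower on average, with 38.3 ± 3.76 and 35.8 ± 2.18 CPM and a log2 fold change of -0.10 ± 0.10. ATP6V0E1, a small membrane subunit, had 140 ± 14.2 and 159 ± 15.7 CPM, a log2 fold change of 0.19 ± 0.11. The heat stress range of ATP6V0C, 178 to 211 CPM, overlapped the thermoneutral range of 169 to 186 CPM through heat stress 2. ATP6V0E2, the rarer e form, had 5.80 ± 0.18 and 6.07 ± 0.51 CPM, a log2 fold change of 0.07 ± 0.17. In TPM the groups overlapped for ATP6V0B only. There ATP6V0C had 249 to 281 TPM in thermoneutral and 292 to 337 TPM in heat stress libraries. ATP6V0E1 had 178 to 217 and 224 to 265 TPM, and ATP6V0E2 10.7 to 11.3 and 11.7 to 13.4 TPM. The share of all genes that separate in TPM is not given here.

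The d subunit couples the ring to the rotor shaft. ATP6V0D1, its general form, had 65.8 ± 5.64 and 65.1 ± 3.44 CPM, a log2 fold change of -0.02 ± 0.09 with a 95% interval from -0.23 to 0.20. ATP6V0D2, the form known from mouse osteoclasts and macrophages, had 3.37, 1.85 and 1.48 CPM in thermoneutral and 4.42, 0.93 and 3.04 CPM in heat stress libraries. Libraries numbered 1 held the highest value in both groups. The group means were 2.23 ± 1.0 and 2.80 ± 1.75 CPM, and the log2 fold change of 0.33 ± 0.58 had a 95% interval from -1.05 to 1.71. Without heat stress 1 the ATP6V0D2 value was -0.17.

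The accessory proteins of the pump differed from each other. ATP6AP1 (gene ID 427854), a glycoprotein of V0 needed for its assembly, had 145, 133 and 137 CPM in thermoneutral and 127, 95.8 and 113 CPM in heat stress libraries. In CPM the groups did not overlap, with heat stress 1 nearest to the thermoneutral range and heat stress 2 farthest from it. In TPM they overlapped, from 115 to 122 in thermoneutral and from 89.7 to 116 in heat stress libraries. Its means of 139 ± 6.40 and 112 ± 15.6 CPM gave a level 1.24-fold lower in heat stress, a log2 fold change of -0.31 ± 0.11, an unadjusted p of 0.0299 and an FDR of 0.21. That p was 0.05 or more when thermoneutral 1, thermoneutral 3, heat stress 2 or heat stress 3 was left out, with log2 fold changes from -0.31 to -0.21. ATP6AP2, also called the prorenin receptor, had 121 ± 3.5 and 119 ± 4.16 CPM. Its log2 fold change was -0.02 ± 0.07, with a 95% interval from -0.18 to 0.15, the narrowest among the pump genes.

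Over the 19 pump genes, 11 log2 fold changes were positive and 8 negative, with a median of 0.03. Split by place, the medians were 0.01 over V1, 0.11 over V0 and -0.16 over the accessory proteins. At an unadjusted p under 0.05, 2 were higher and 1 was lower (15.8% called), near the 18.8% of all genes. Summed V0 counts were 654, 639 and 669 CPM in thermoneutral and 748, 706 and 788 CPM in heat stress libraries, without overlap. Without ATP6V0A1 the V0 sums were 478, 485 and 484 CPM against 549, 483 and 529 CPM, and overlapped. Summed V1 counts were 464, 488 and 465 CPM against 510, 452 and 468 CPM, and overlapped. In the authors' TPM both sums separated the groups, V0 at 745 ± 19.1 and 887 ± 37.4 TPM and V1 at 494 ± 14.1 and 545 ± 24.3 TPM. The TPM scale also moved the median log2 fold change of all genes from -0.0045 to 0.0762.

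**Figure D4:**
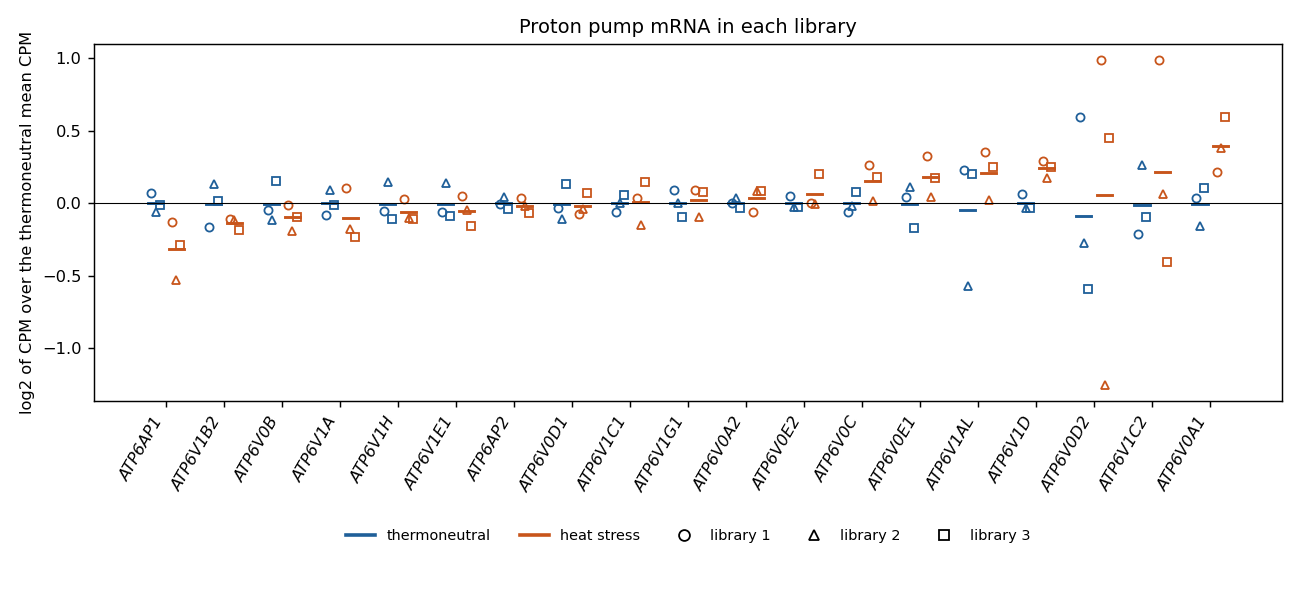
Log2 of each library's CPM over the thermoneutral mean CPM for the 19 V-ATPase genes, sorted by the log2 fold change from edgeR. Circles, triangles and squares are libraries 1, 2 and 3, blue is thermoneutral, orange is heat stress and bars are group means of the log2 values. ATP6V1D and ATP6V0A1 lie wholly higher and ATP6AP1 wholly lower in heat stress, and the rare forms ATP6V0D2 and ATP6V1C2 spread widest.

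Per transcript length the pump subunits were far from equal. ATP6V0C led at 265 ± 16.0 TPM in thermoneutral fat. ATP6V0E1 followed at 198 ± 19.6 TPM and ATP6V1G1 at 147 ± 7.72 TPM. The catalytic ATP6V1A and its partner ATP6V1B2 were near each other at 46.9 ± 3.37 and 52.0 ± 5.94 TPM, and ATP6V1H was lower at 21.2 ± 2.15 TPM. The rare forms were lowest, with 3.42 ± 0.66 TPM for ATP6V1C2 and 2.57 ± 1.12 TPM for ATP6V0D2. The subunits ATP6V1F, ATP6V1B1, ATP6V1G2, ATP6V1G3 and ATP6V0A4 and the cathepsins CTSE, CTSF and CTSW were not analysed here.

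The main LAMPs, LAMP1 and LAMP2, are the most abundant glycoproteins of the lysosomal membrane, and LAMP2 also serves chaperone-mediated autophagy. LAMP1 (gene ID 396220) had 513, 499 and 525 CPM in thermoneutral and 620, 528 and 544 CPM in heat stress libraries. The groups just failed to overlap, with heat stress 2 close above thermoneutral 3. The log2 fold change was 0.14 ± 0.10 with an unadjusted p of 0.208. LAMP2 (gene ID 414800) had 324, 329 and 320 CPM in thermoneutral and 310, 306 and 309 CPM in heat stress libraries. In CPM its groups did not overlap either, because its libraries varied least of the 34 genes, by a coefficient of variation of 1.10%. The log2 fold change was -0.07 ± 0.08 with an unadjusted p of 0.367 and a 95% interval from -0.25 to 0.11. With limma on log2(TPM + 1) the LAMP2 value was 0.02, beside a median of 0.0762 over all genes. In TPM its groups overlapped, from 130 to 135 in thermoneutral and from 132 to 136 in heat stress libraries. Their means were 513 ± 13 and 564 ± 49.4 CPM for LAMP1 and 324 ± 4.33 and 308 ± 2.43 CPM for LAMP2.

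LAMP3 and LAMP5 were highest in the libraries numbered 2 of both groups, and the groups overlapped. LAMP3 (gene ID 424961), made in mature dendritic cells and in lung epithelium of mammals, had 2.34, 10.4 and 2.19 CPM in thermoneutral and 2.0, 8.56 and 0.81 CPM in heat stress libraries. Both libraries numbered 2 were high and the other 4 low. The mean LAMP3 levels were 4.96 ± 4.67 and 3.79 ± 4.17 CPM, and its log2 fold change was -0.38 ± 0.94 over all libraries and -0.70 ± 0.51 without both numbered 2. With 1 library left out the LAMP3 value ran from -1.81 (without heat stress 2) to 0.75 (without thermoneutral 2), so its sign was not stable. LAMP5 (gene ID 416732), a family member of neurons and plasmacytoid dendritic cells, had 4.27, 11.7 and 5.43 CPM in thermoneutral and 5.04, 9.50 and 6.06 CPM in heat stress libraries. It too was highest in the libraries numbered 2. LAMP5 averaged 7.13 ± 3.99 and 6.86 ± 2.34 CPM, with log2 fold changes of -0.05 ± 0.42 over all libraries and 0.18 ± 0.28 without both numbered 2. The LAMP5 value was -0.36 without heat stress 2 and 0.50 without thermoneutral 2. The surfactant and epithelial genes above were high in the same libraries, and their part in the LAMP3 and LAMP5 values was not tested.

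**Figure D5:**
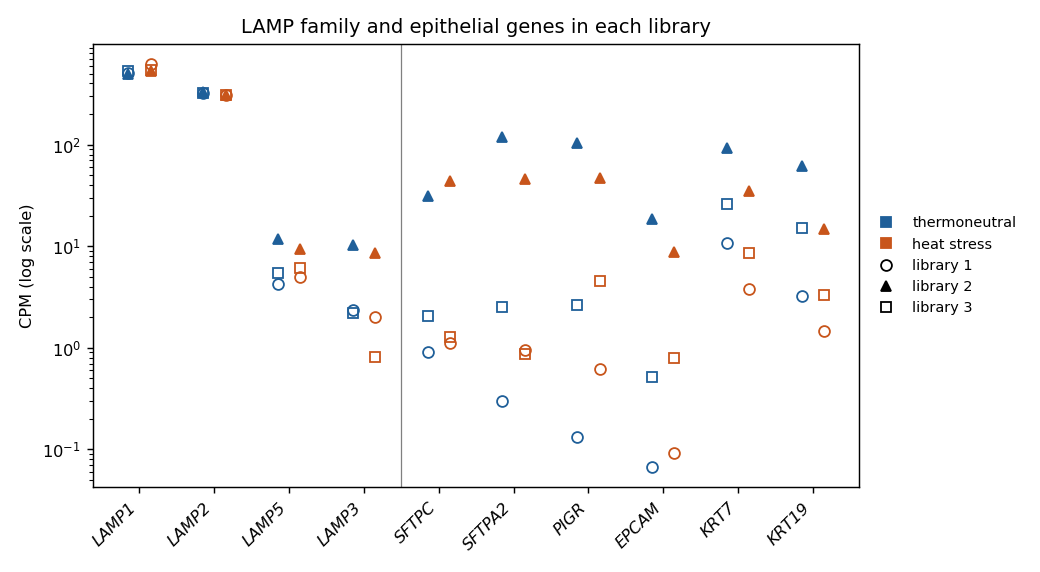
CPM on a log axis in each library of the 4 LAMP genes (left of the line) and of 6 lung and epithelial genes (right). Filled triangles are the libraries numbered 2, open circles and squares are libraries 1 and 3, blue is thermoneutral and orange heat stress. LAMP3 stands at 10.4 and 8.56 CPM in the libraries numbered 2, where SFTPC, SFTPA2, PIGR, EPCAM, KRT7 and KRT19 are high too, while LAMP1 and LAMP2 are level.

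Leaving out both libraries numbered 2 left 1 gene of the 34 higher at an unadjusted p under 0.05 (CTSZ, log2 fold change 0.37) and 1 lower (CTSK). The share of all genes at that p in this setting is not given here. The signs were then 20 positive and 14 negative, and 6 genes turned from negative to positive: CTSD (0.15), CTSB (0.07), CTSC (0.07), ATP6V1E1 (0.01), ATP6V1H (0.03) and LAMP5 (0.18). ATP6V1AL moved to 0.07 and ATP6V0D2 to 0.61. CTSO kept a log2 fold change of -0.31, ATP6V1D of 0.24, ATP6V0A1 of 0.33 and ATP6AP1 of -0.25, with unadjusted p-values from 0.057 to 0.108 and 2 libraries per group. Heat stress 1 was the highest of its group for 24 of the 34 genes (70.6%), among them 8 of 11 cathepsins and 14 of 19 pump genes, against 41.4% of all genes tested. Within groups, the 27 lysosomal genes of at least 30 CPM had a median coefficient of variation of 8.09%, against 9.14% over the 6067 genes of that level.

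Other lysosomal genes are given from lists chosen with earlier results of these data known. In each of these 8 lists edgeR put 0 genes past the FDR, so the counts that follow are at an unadjusted p under 0.05, a level that 18.8% of all genes reached. DESeq2 gave an adjusted p under 0.05 to 0 to 2 genes per list, among them CSTB, CTNS, LAPTM4A, SORT1, VPS11 and PPP3CA. Of 11 assembly and regulatory factors of the V-ATPase tested, 0 were higher and 1 was lower. That was DMXL1, a rabconnectin that helps to assemble the pump, at -0.44 ± 0.14 in log2 fold change, and the next by p were ROGDI (-0.28 ± 0.12), WDR7 (-0.18 ± 0.10) and TLDC2 (-0.57 ± 0.42). Among 9 genes of other lysosomal proteases and their relatives 0 passed in edgeR, at the unadjusted p too, and 0 in DESeq2. The 4 with the smallest p there were LGMN, the asparaginyl protease that matures cathepsins (0.31 ± 0.14), SCPEP1 (-0.21 ± 0.13), TPP1 (-0.26 ± 0.16) and TINAGL1 (0.33 ± 0.23). TINAGL1 is a relative of the cathepsins and not itself a lysosomal protease.

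Of 7 cystatins and other cathepsin inhibitors tested, 1 was higher and 1 lower. CSTB, a cytosolic inhibitor of cathepsins, had 38.6 ± 3.77 CPM in thermoneutral and 49.2 ± 2.41 CPM in heat-stressed fat, without overlap (log2 fold change 0.35 ± 0.10, FDR 0.129 in edgeR, adjusted p 0.04 in DESeq2). CST7, an inhibitor made by immune cells, was lower (-0.68 ± 0.25). CST3, the secreted cystatin C, varied widely, at 771 ± 244 and 509 ± 136 CPM (log2 fold change -0.60 ± 0.27), and SERPINB1 stood at -0.61 ± 0.31.

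Of 25 glycosidases and sulfatases, 1 was higher and 5 were lower. ARSA, a sulfatase of sulfated lipids, stood at 0.31 ± 0.10 in log2 fold change and HPSE, which cleaves heparan sulfate, at -0.69 ± 0.25. Of 17 lipid enzymes and carriers, 1 was higher and 2 were lower, among them PLD4 (-1.23 ± 0.40), the phospholipase PLA2G15 (-0.34 ± 0.11) and the acid ceramidase ASAH1 (0.35 ± 0.12), with the saposin precursor PSAP next (0.32 ± 0.14). Of 33 membrane transporters and channels, 4 were higher and 2 lower, led by the cystine exporter CTNS (0.45 ± 0.10), the calcium channel TPCN1 (0.30 ± 0.10), SLC37A2 (0.74 ± 0.24) and LAPTM4A (-0.25 ± 0.08).

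Of 24 genes that sort proteins to lysosomes, 1 was higher and 1 lower. SORT1, the sorting receptor sortilin, had 70.3 ± 5.95 and 118 ± 19.5 CPM, without overlap (log2 fold change 0.74 ± 0.14, FDR 0.0652 in edgeR), and VPS11, a tethering subunit, stood at -0.44 ± 0.10. HGS (0.20 ± 0.10) and GNPTG (0.18 ± 0.10) did not reach the unadjusted threshold. Of 16 regulators, 1 was higher (PPP3CA, the catalytic chain of calcineurin, 0.48 ± 0.12) and 1 lower (FNIP1, -0.42 ± 0.14), with LAMTOR5 (0.24 ± 0.13) and LAMTOR1 (0.16 ± 0.10) next by p. TFEB, the transcription factor that drives lysosomal genes, had 27.4 ± 0.52 and 31.8 ± 5.0 CPM (log2 fold change 0.21 ± 0.13). Its relatives MITF and TFE3 stood at -0.15 ± 0.10 and 0.12 ± 0.17, and TFEC was not analysed here.

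Markers of other cells in the tissue are given for comparison, with counts at an unadjusted p under 0.05. At that level 9.20% of all genes were lower and 9.56% higher. Genes with 0 counts in a library are not listed. In edgeR, 1 macrophage and dendritic cell marker and 1 T cell marker passed the FDR as lower. So did 2 adipocyte markers as higher, and 0 in the B cell, heterophil and thrombocyte, erythrocyte and endothelial lists. DESeq2 gave an adjusted p under 0.05 to 9.18% of genes. It passed 8 T cell, 3 B cell, 3 heterophil and thrombocyte and 2 erythrocyte markers, all as lower. It passed 11 endothelial markers as higher. Among adipocyte markers it passed 6 as higher and 2 as lower. Of 34 macrophage and dendritic cell markers, GPR34, XCR1 and MMR1L4 had the smallest p. Of 18 T cell markers, 0 were higher and 12 lower (CD3D, CD3E and TRAT1 first), with summed levels of 256 to 287 and 168 to 189 CPM. Of 14 B cell markers, 0 were higher and 9 lower (PAX5, CD79B and CXCR5), at 258 to 371 and 155 to 290 CPM. Of 11 heterophil and thrombocyte markers 3 were lower (F13A1, GFI1 and THBS1), at 497 to 1058 and 284 to 419 CPM, and of 10 erythrocyte markers 4 were lower (ANK1, SPTB and HBA1), at 447 to 953 and 263 to 419 CPM. Of 18 adipocyte markers 7 were higher and 2 lower (PLIN4, FASN and G0S2), at 24130 to 31350 and 28190 to 32280 CPM, and of 20 endothelial markers 12 were higher and 0 lower (SOX7, PLVAP and FLT4), at 3180 to 4167 and 3943 to 4844 CPM. The smallest p among the fibroblast markers belonged to LUM, LOX and FBLN1, and among the osteoclast markers to NFATC1, ITGB3 and CA2. Their part in the values of CTSZ, ATP6V1D, ATP6V0A1 and ATP6AP1 was not tested.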

How the data were processed

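Per the labels' protocols, TRIzol was used to extract total RNA and a stranded mRNA kit to make the libraries. Per the submitters' processing notes, the tools included HISAT2 2.1.0, StringTie 2.1.3b and Bowtie2 2.3.4.1, with GRCg6a as the genome build. What each tool did, and if strand was used in counting, is not given in the sources used here, so reads of a gene and an overlapping antisense gene may be mixed. The deposited table gives, per the file headers, whole-number read counts, with the authors' TPM and FPKM values scaled for length and depth. Fold changes, given as signed ratios, and p-values came from the authors' deposited table, per the file headers. The lowest count listed is 1, so genes with 0 counts in a library are not listed. A further 36 columns hold per-library values and were not used. Gene IDs were matched to the GRCg7b gene table for names and neighbours only (14044 of 15491, and 34 of the 34 genes described).

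The quasi-likelihood F test of edgeR 4.0.16, in R 4.3.3, was run on the counts of all genes with TMM scaling, filterByExpr and no term but group, adjusted by Benjamini-Hochberg at 0.05. The fits were also run on simulated counts with known changes, all larger than the fold change fitted for any of the 34 genes. That run cannot show if changes of the size seen here would be found. The SE is the absolute log2 fold change over the square root of F. Alternatives used DESeq2 1.42.0, limma 3.58.1 on log2(TPM + 1), log2(FPKM + 1) and log2(TPM + 0.1), RLE factors or library totals, no filter or at least 1 CPM in all libraries, the library number as a block, and each library left out. An exact permutation test of 3 against 3 libraries cannot go below p = 0.1, so none was used. Within a group, every pair of libraries differed by more than sampling noise, with a chi-square of 35.1 to 100 per degree of freedom.

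Every gene found by the symbol rule is named, and those at an unadjusted p under 0.05 or with groups that do not overlap are given per library. Up to 4 genes of smallest p are named per pathway list and 3 per cell type list, with CSF1R, CD3E, CD79B, FABP4, COL1A1, TFEB, TFE3, MITF, TFEC, CST3 and CSTB added. Some genes that this rule picks are not reported here. Other genes named, the epithelial list included, were chosen after their values were seen. The members and lists were chosen with earlier results of these data known.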

Additional observations from a re-analysis of the deposited data

How the results depend on the processing

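The rare genes ATP6V1C2, LAMP5, ATP6V0D2 and LAMP3 spread widely within groups, by coefficients of variation of 38.0%, 46.3%, 54.5% and 102%. ATP6V0E2, also rare at 5.93 CPM, had 6.31%. The part of depth in this spread was not tested, and 3 libraries per group limit all genes. The count of genes past the FDR, 26 as reported, was 1364 with DESeq2, 133 with at least 1 CPM in all libraries, 99 with library totals, 222 and 202 with limma on log2(TPM + 0.1) and log2(TPM + 1), 95 with the replicate block and 0 without both libraries numbered 2. It ran from 3 to 35 when 1 library was left out, with 3 without heat stress 3 or thermoneutral 3, 6 without heat stress 2 and 10 without thermoneutral 2. Lysosomal genes past the FDR went from 0 to 3 with DESeq2. Those higher at an unadjusted p under 0.05, 3 as reported, were 7 with either TPM setting and 1 without both libraries numbered 2, and ran from 1 (without thermoneutral 2) to 4 with 1 library left out. Those lower, 3 as reported, were 1 in the TPM settings and 1 without both libraries numbered 2, and ran from 2 to 6 (without heat stress 1) with 1 library left out. The shares of all genes at that p in these settings are not given here, so these counts have no background beside them. The median log2 fold change of all genes was -0.0045 as reported. It was 0.0943 with limma on log2(TPM + 0.1) and 0.0762 on log2(TPM + 1). The cause was not tested. With log2(TPM + 1), ATP6V0C, ATP6V0E1, CTSV and LAMP1 joined the higher genes, and CTSO (unadjusted p 0.0632) and ATP6AP1 (unadjusted p 0.0761) left the lower ones. The replicate block kept 3 genes higher and 3 lower. Deviations of same-numbered libraries from their group means correlated at 0.078, 0.252 and 0.036 across genes. The pair numbered 2 was the highest of all 9 pairs, while thermoneutral 1 matched heat stress 3 best (0.109), so the numbers were not taken to pair the libraries in general. The median log2 fold change of the cathepsins ran from -0.29 to -0.05 and that of the pump genes from -0.01 to 0.12, within the spread between libraries. Of 542 recomputed log2 fold changes, 527 moved by less than 1 SD, and 56 changed sign, in 18 genes, none of them among the 6 at an unadjusted p under 0.05. Of these sign changes, 20 came under the TPM settings, in which the median of all genes rose as well.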

Other observations

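Relatives that the symbol rule does not reach were measured too. LOC420160, described in the authors' deposited table as cathepsin L1-like, had 7.97, 10 and 7.79 CPM in thermoneutral and 5.43, 6.13 and 5.27 CPM in heat stress libraries, without overlap. Its log2 fold change was -0.61 ± 0.18 (FDR 0.138 in edgeR's quasi-likelihood test with Benjamini-Hochberg adjustment, adjusted p 0.0193 in DESeq2). CTSV, its relative of the cathepsin L type, stood at 0.15 ± 0.10. The cathepsin D-like LOC107050543 stood at -0.89 ± 0.56 and LOC107049680, like the kidney form of the pump's B subunit, at -0.44 ± 0.52. All 3 may share reads with near-identical copies and are uncertain.

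CTSK and CTSS are neighbours in the GRCg7b gene table. Their log2 fold changes were -0.61 ± 0.15 and -0.30 ± 0.22, but their log2 count ratio (CTSS over CTSK) overlapped between the groups, at -0.38, 0.48 and 0.34 in thermoneutral and 0.83, -0.06 and 0.53 in heat stress libraries. The log2 count ratio of CTSZ to CTSK, a pair chosen after the values were seen, was 0.60, 0.85 and 0.63 in thermoneutral and 1.71, 1.35 and 1.90 in heat stress libraries. The same ratio for LAMP1 over LAMP2, likewise chosen, was 0.66, 0.60 and 0.71 against 1.0, 0.79 and 0.82. These ratios do not depend on how libraries were scaled.

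Of the genes tested with a mean above 1 CPM, 53 stood at least 2.5-fold above the other libraries of their group in both libraries numbered 2. LAMP3 was the 1 lysosomal gene among them, beside SFTPA2, which had 118 and 46.0 CPM there and 0.30 to 2.5 CPM elsewhere, and PIGR, which had 103 and 46.6 CPM there and 0.13 to 4.54 CPM elsewhere. The plasma protein genes ALB and HPX and the genes MSLN, KRT7, KRT18 and KRT19 were also among the 53. From which tissue this RNA came was not tested. How many genes stand out so in other pairs of libraries is not given here.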
